A study of Mus musculus with 6 samples.

Results

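The ribosome biogenesis genes described here are a list of 50 mouse genes for RNA polymerase I, abundant nucleolar proteins, small nucleolar ribonucleoprotein (snoRNP) cores and assembly factors of the small and the large ribosomal subunit. They were chosen by gene name and role, with earlier results of these data known. The array annotation held a probe set naming the gene alone for 49 of the 50, out of 18194 genes in all, and Npm3 was not analysed here. Where a gene had several probe sets, the one brightest on average over the 6 arrays (mean log2 signal) stood for it. On every array all 49 members read above the median signal of that array, so no filter on low signals removed a member.

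The cells were splenic CD4 T cells of C57BL/6 mice in Th2 culture, and their RNA was hybridized to 6 Affymetrix arrays, 1 for each condition. Th2-4th cells, the fully developed Th2 cells, had been cultured for 4 weeks through repeated cycles, and the paper's methods give IL-2 and anti-IL-4 mAb for the later cycles. Th2-1st cells, the effector Th2 cells, came from 1 cycle of 5 days with IL-4 at 100 U/ml and IL-2 at 25 U/ml. In each culture the 3 arrays held GATA3 siRNA cells stimulated for 4 h with immobilized anti-TCR mAb, control siRNA cells stimulated in the same way, and control siRNA cells left unstimulated. All cells had been nucleofected with an siRNA 24 h before stimulation. There was no array of unstimulated GATA3 siRNA cells, so the knockdown could be read only after stimulation. Within a culture there was 1 array per condition, so every ratio below compares 2 arrays and has no replicate check. The one test that the 6 arrays allow takes both cultures together, in an additive limma model of condition and culture with 2 residual degrees of freedom. Its error is the disagreement between the cultures, which differ in age, and not the spread of repeated cultures of 1 kind. The labels do not say whether cells of several mice were pooled.

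A ribosome is made in the nucleolus. RNA polymerase I copies the ribosomal DNA into 1 long precursor RNA, snoRNPs modify it, and assembly factors cut and fold it together with ribosomal proteins until both subunits can leave for the cytoplasm. A resting T cell makes few ribosomes, and an activated T cell, which grows before it divides, makes many. MYC is a known activator of this gene programme and binds the sequence CACGTG, called an E-box, together with its partner MAX.

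Promoter sequence from RefSeq (build GRCm38.p6, 250 bases before to 50 bases after the start of each gene) was found for 44 of the 49 members. It is shown because many ribosome biogenesis genes are known to carry the E-box, and because the siRNA targeted a factor that binds GATA motifs. CACGTG, which reads the same on both strands, stood in the window of 12 members (27.3% of 44), against 8.09% of 27025 genes with a promoter in the table, 12.4% of 7818 such genes above the array median on both control arrays of Th2-4th cells, and 18.5% of 92 other ribosome biogenesis genes. The stretches below come from 7 of the 12, with the E-box in capitals, and they do not overlap a GATA motif match. A match describes the letters and is not a shown binding site.
Tsr1 (chr11:74898084-74898113, + strand): agtagagttcacttggtgcaCACGTGgact
Mybbp1a (chr11:72441347-72441376, + strand): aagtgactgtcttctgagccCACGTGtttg
Pno1 (chr11:17211543-17211572, - strand): gcatgcgctgtacaaccacgCACGTGttcc
Wdr43 (chr17:71616212-71616244, + strand): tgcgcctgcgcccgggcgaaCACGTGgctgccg
Utp20 (chr10:88826768-88826797, - strand): gcgcccagcggcactaactaCACGTGagga
Utp18 (chr11:93885761-93885806, - strand): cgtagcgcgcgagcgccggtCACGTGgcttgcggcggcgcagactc
Rrn3 (chr16:13780631-13780676, + strand): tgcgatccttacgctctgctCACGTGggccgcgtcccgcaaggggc
The E-box began 25 bases after the transcription start in Tsr1, 41 in Mybbp1a, 38 in Pno1, 18 in Wdr43 and 38 in Utp20, and it lay before the start in Utp18, at position -20, and in Rrn3, at -48. Rrn3 held a second one at -215. The other members with an E-box were Ltv1, Nop2, Utp4, Imp4 and Pes1. AGATAA or TGATAA, letters that GATA factors bind, was found on either strand in the window of 1 member, Gtpbp4 (2.27%), against 21.0% of all genes. For these letters the share was not taken among genes above the array median or other ribosome biogenesis genes. Whether the low share is particular to the members was not tested. The ranges of the 12 and of the other 32 members overlapped, and the median log2 ratio after anti-TCR stimulation was 2.29 (1.17 to 3.05) with an E-box and 2.09 (0.26 to 3.90) without one in Th2-4th cells.

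Gata3, the gene targeted by the siRNA, was lower with it in both cultures. It read 2853 with GATA3 siRNA and 9261 with control siRNA in stimulated Th2-4th cells, and 1798 and 4883 in stimulated Th2-1st cells, log2 ratios of -1.70 and -1.44. Of 8 measured T cell identity genes all 8 were above the median on all 6 arrays, with summed signals of 53047 to 87326, while the summed signals were 129 to 249 for 5 B cell genes, 308 to 591 for 7 myeloid genes, 7.38 to 31.5 for 2 erythroid genes and 325 to 1132 for 4 CD8 T and NK cell genes. The summed signal of 5 mast cell and basophil genes differed between the arrays, and Mcpt8, a basophil protease, had the highest single signal among them. In Th2-4th cells the summed signal was 321 in stimulated GATA3 siRNA, 1230.2 in stimulated control and 824 in unstimulated control cells. In Th2-1st cells this sum was 163, 325 and 634 in the same order. The deposited signals had been scaled to 1 trimmed mean, so a change in the RNA content of a whole cell cannot be seen in them, and in such bulk samples fewer cells with a transcript and less of it per cell cannot be told apart.

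Anti-TCR stimulation was followed by higher signals of the whole group. All 49 members were higher in stimulated than in unstimulated control cells in both cultures. In Th2-4th cells 40 were over 2-fold higher, where 18.7% of all 18194 genes and 11.3% of the genes above the array median on both arrays were. The median log2 ratio was 2.11 (4.30-fold), against -0.10 for all genes. In Th2-1st cells 31 were over 2-fold higher, where 17.5% of all genes and 7.8% of the bright ones were, with a median of 1.15 (2.22-fold), against -0.01 for all genes. Over 1.5-fold were 43 members in Th2-4th cells, where 27.6% of all genes and 19.4% of the bright ones were, and 45 in Th2-1st cells, where 27.3% and 15.9% were. The spread among about 500 genes of like signal, given as a robust SD of their log2 ratios, ranged over the members from 0.48 to 1.15 in Th2-4th cells and from 0.39 to 0.81 in Th2-1st cells. It includes real changes and is no replicate error. Set against the median of such genes, 43 and 46 members were higher by more than 1 such SD, as 17% of all genes were in either culture. In the limma fit over both cultures 45 of the 49 members were higher after stimulation at an adjusted p under 0.05, where 8.99% of all genes were. The adjusted p was smallest for Wdr43, at 0.000382 with a log2 ratio of 2.30 (SE 0.19). The members that did not pass were Nop10 (adjusted p = 0.0824), Emg1 (0.159), Npm1 (0.180) and Wdr12 (0.268), by the same limma fit. These calls rest on a variance that depends on signal: without that trend limma called 0 members and 0 genes in all, while 42 members were higher at an unadjusted p under 0.05.

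**Figure D1:**
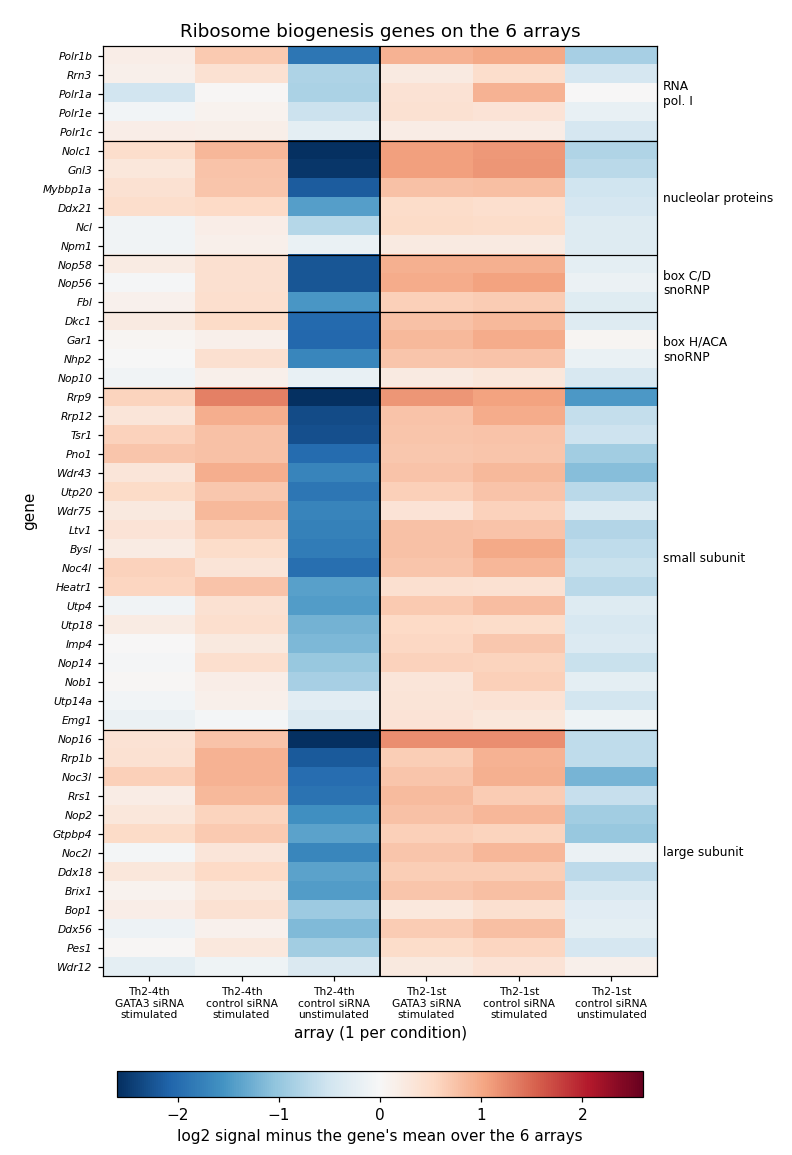
Log2 signal of 49 ribosome biogenesis genes (rows, by role) on the 6 arrays (columns, 1 array per condition), given as the difference from the mean of each gene over the arrays, with red above and blue below that mean. The unstimulated Th2-4th array has the darkest blue in most rows, and the 4 stimulated arrays are mostly at or above the mean.

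Among the genes of RNA polymerase I, the subunits differed in their response. Polr1b, the second largest subunit, read 1442 in stimulated and 244 in unstimulated Th2-4th cells, and 1774 and 494 in Th2-1st cells (5.90-fold and 3.59-fold). Rrn3, the factor that brings the polymerase to the ribosomal DNA promoter, read 1112 and 485 in Th2-4th cells and 1159 and 627 in Th2-1st cells. Polr1b and Rrn3 were the members of this role over 2-fold in Th2-4th cells, and Polr1b alone in Th2-1st cells. Polr1a, the largest subunit, read 409.8 and 226 in Th2-4th cells and 757 and 407 in Th2-1st cells. Polr1e, another subunit, read 951 and 607 in Th2-4th cells and 1137 and 778 in Th2-1st cells. Polr1c, which RNA polymerase III also uses, had log2 ratios of 0.40 and 0.64.

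The abundant nucleolar proteins Ncl and Npm1 had the smallest ratios of their role in Th2-4th cells. Npm1, a histone and ribosome chaperone, read 32984 in stimulated and 26552 in unstimulated Th2-4th cells, and 35016 and 23718 in Th2-1st cells. Its other probe set gave log2 ratios of 0.47 and 0.58, against 0.31 and 0.56. Ncl, nucleolin, which binds precursor RNA, read 25812 and 13675 in Th2-4th cells and 31640.2 and 18135 in Th2-1st cells. By contrast Nolc1, a chaperone of snoRNPs, read 7162 and 612 in Th2-4th cells and 8606 and 2292 in Th2-1st cells (11.7-fold and 3.76-fold). Gnl3, nucleostemin, a nucleolar GTPase, had log2 ratios of 3.27 and 1.84, and Mybbp1a, a nucleolar protein that binds MYB, had 2.88 and 1.30. Ddx21, an RNA helicase, had 1.95 and 0.87, and its other probe set gave 2.26 and 2.23.

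The snoRNP cores had similar ratios, with 1 exception. Box C/D snoRNPs guide methylation of rRNA. Of their proteins, the methyltransferase Fbl read 13755 in stimulated and 3551 in unstimulated Th2-4th cells, and 15874 and 8126 in Th2-1st cells. Nop56 read 7455 and 1199 in Th2-4th cells and 11585 and 5031 in Th2-1st cells, and Nop58 had log2 ratios of 2.65 and 1.18. Box H/ACA snoRNPs guide pseudouridylation. Of their proteins, the pseudouridine synthase Dkc1 read 9259 and 1627 in Th2-4th cells and 11802 and 5241 in Th2-1st cells. Nhp2 read 10535 and 2447 in Th2-4th cells and 13211 and 7031 in Th2-1st cells, and Gar1 had log2 ratios of 2.17 and 0.91. The exception was Nop10, the smallest core protein, which read 10026 and 7991 in Th2-4th cells and 11199 and 6788 in Th2-1st cells.

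Of the 18 small subunit factors 16 were over 2-fold in Th2-4th cells and 13 in Th2-1st cells. Rrp9, a protein of the snoRNP that guides cleavage of the small subunit precursor, had the largest ratio of all members in both cultures. It read 1845 in stimulated and 124 in unstimulated Th2-4th cells, and 1533 and 263 in Th2-1st cells (14.9-fold and 5.82-fold). Wdr43, which acts early in assembly, read 5336 and 842 in Th2-4th cells and 4976 and 1296 in Th2-1st cells. Heatr1, which is also needed for transcription of ribosomal DNA, read 3800.3 and 860.0 in Th2-4th cells and 2995 and 1404 in Th2-1st cells. Bysl, bystin, which acts late, read 1875 and 381 in Th2-4th cells and 2663 and 850.3 in Th2-1st cells. The lower end of this role was held by Nob1, the endonuclease of the last cut, at 900.4 and 438 in Th2-4th cells and 1221 and 667 in Th2-1st cells, and by Utp14a and Emg1, the members of this role below 2-fold in Th2-4th cells. Emg1, an rRNA methyltransferase, read 9024 and 7260.2 in Th2-4th cells and 11412 and 8655 in Th2-1st cells. Utp14a had log2 ratios of 0.40 and 0.84, and its other probe set had 1.77 and 0.75.

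Of the 13 large subunit factors 12 were over 2-fold in Th2-4th cells and 11 in Th2-1st cells. Nop16 read 3239.6 in stimulated and 265 in unstimulated Th2-4th cells, and 4472 and 1219.9 in Th2-1st cells (12.2-fold and 3.67-fold). Noc3l read 1918 and 258 in Th2-4th cells and 1948 and 445 in Th2-1st cells. Bop1, Pes1 and Wdr12 form 1 complex that acts on the large subunit precursor, and their chosen probe sets did not move alike. Bop1 read 1231 and 491 in Th2-4th cells and 1247 and 764 in Th2-1st cells, and Pes1 read 1981 and 880.1 in Th2-4th cells and 2438 and 1218 in Th2-1st cells. Wdr12 read 1856 and 1545 in Th2-4th cells and 2588 and 2203 in Th2-1st cells, the smallest ratio of all members in both cultures. A second probe set of Wdr12 read 249.6 in stimulated and 429 in unstimulated Th2-4th cells, a log2 ratio of -0.78, and the third was below the median of its array on both, so its response is uncertain.

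**Figure D2:**
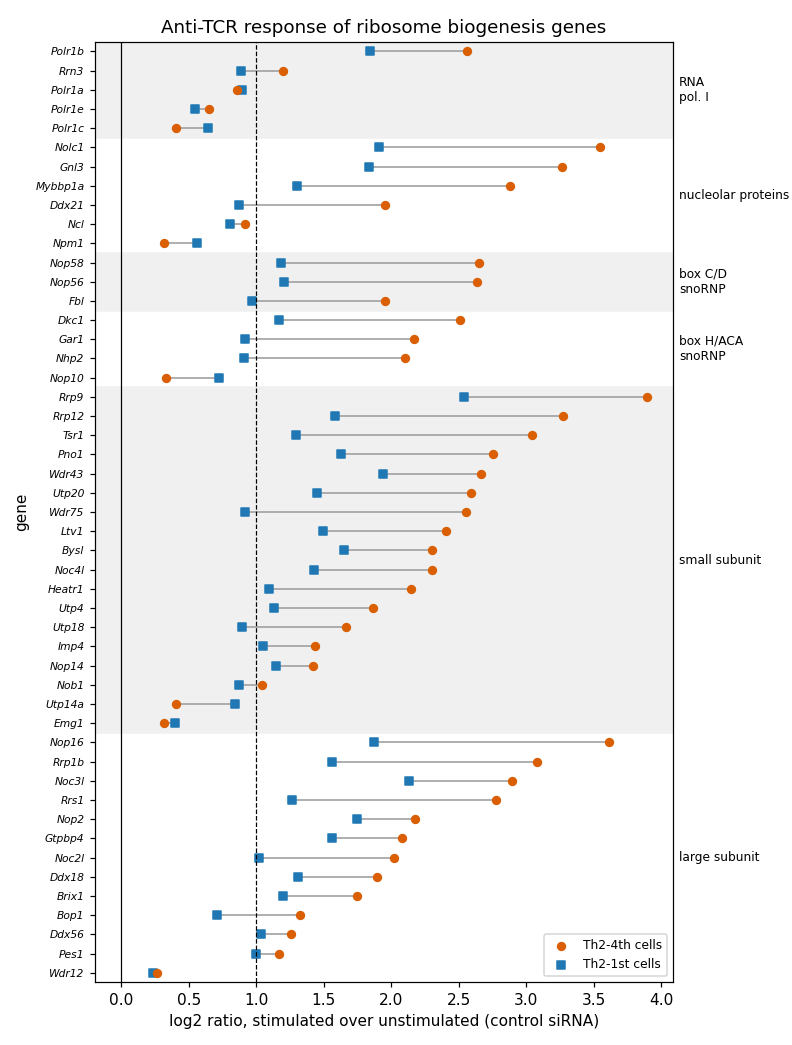
Log2 ratio of stimulated over unstimulated control siRNA cells (horizontal axis) for 49 ribosome biogenesis genes (vertical axis, by role), with circles for Th2-4th and squares for Th2-1st cells, each from 1 pair of arrays, and a dashed line at 2-fold. All points lie right of 0, and 43 of the 49 circles lie right of their square.

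Across probe sets these responses held for most genes. There were 33 members with several probe sets, and of their other probe sets 43 were above the array median on both arrays in Th2-4th cells, of which 41 had the same sign as the chosen one. In Th2-1st cells it was 43 of 44.

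The response was larger in Th2-4th cells for most members, though not for all. The log2 ratio of Th2-4th cells minus that of Th2-1st cells was positive in 43 and negative in 6 members, with a median of 0.76. Of all 18194 genes 8581 had a positive difference, and their median was -0.06. For 19 members the response was larger by over 2-fold, where 15.3% of all genes and 4.93% of the genes above the array median on the 4 arrays were. A further member, Noc2l, lay just under that line at 0.999. The largest differences were those of Tsr1, a GTPase-like factor of the small subunit (1.75), Nop16 (1.74), Rrp12, which serves export of the subunits (1.69), Nolc1 (1.64) and Wdr75 (1.63). By their chosen probe sets the members with a smaller response in Th2-4th cells were Utp14a (-0.44), Nop10 (-0.39), Npm1 (-0.25), Polr1c (-0.24), Emg1 (-0.09) and Polr1a (-0.04). The other probe set kept this direction for Nop10, Npm1 and Polr1c and reversed it for Utp14a. For Polr1a the other probe sets above the array median went both ways, and Emg1 had no other. In the opposite case, a larger response by the chosen probe set was reversed by another above the array median for Bop1, Ddx18, Heatr1, Imp4, Polr1e and Wdr12. By role the median difference was 1.43 for box C/D proteins, 1.26 for nucleolar proteins, 1.23 for box H/ACA proteins, 0.82 for small subunit factors, 0.59 for large subunit factors and 0.10 for RNA polymerase I. With 4 arrays, 1 each, this difference was not tested.

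The difference came with the level before stimulation. In unstimulated control cells 45 of the 49 members were lower in Th2-4th than in Th2-1st cells, where 7608 of all 18194 genes were. Among the genes above the array median on both arrays 4401 of 9713 were lower. Of the members 26 were under 0.5-fold, where 12.3% of all genes and 7.57% of the genes above the array median on both arrays were. The median log2 ratio was -1.01, against 0.17 for all genes. Nop16 read 265 in Th2-4th and 1219.9 in Th2-1st cells, Gar1 1064 and 4544, and Nop56 1199 and 5031, each over 4-fold lower in Th2-4th cells. Box C/D proteins, with a median of -1.99, and box H/ACA proteins, with -1.60, lay lowest, and RNA polymerase I, with -0.37, and large subunit factors, with -0.79, lay highest. The 4 members that were not lower were Nop10 (7991 in Th2-4th and 6788 in Th2-1st cells), Utp14a (1329 and 1154), Polr1c (2929 and 2575) and Npm1 (26552 and 23718). For all 4 the other probe set had a negative log2 ratio, from -0.63 to -0.07. Of the other probe sets of all members, 33 of 43 had the sign of the chosen one.

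After stimulation the cultures were closer as the signals were deposited. Of the 49 members 40 were lower in Th2-4th cells, where 45% of all genes were, and the median log2 ratio was -0.24, against 0.10 for all genes. None was under 0.5-fold, where 12.7% of all genes and 5.99% of the genes above the array median on both arrays were, and 4 were under 1/1.5-fold, where 20.7% of all genes and 14.5% of the bright ones were. With each array centred on its own median these counts were 2 and 16, and the shares of all genes were not counted on that scale. As deposited, the 4 were Polr1a (409.8 in Th2-4th and 757 in Th2-1st cells), Gar1 (4788 and 8562), Ddx56, a helicase of the large subunit pathway (672 and 1077), and Nop56 (7455 and 11585). The highest were Heatr1 (3800.3 and 2995), Rrp9 (1845 and 1533) and Wdr75 (5182 and 4348). The ratios in this and the previous paragraph rest on the same 4 arrays, so a low unstimulated signal and a large response in Th2-4th cells are 1 measurement read in 2 ways.

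Other measures differed between the cultures too, and their part in these ratios was not tested. The ratio of the 3′ to the 5′ probe set of Actb was 1.32 to 1.37 on the Th2-4th arrays and 1.02 to 1.24 on the Th2-1st arrays, and that of Gapdh was 0.767 to 0.884 and 0.764 to 0.812. The summed signal of the 8 T cell identity genes was 81103 to 87326 in Th2-4th and 53047 to 58921 in Th2-1st cells, that of the 7 myeloid genes was 557 to 591 and 308 to 381, and that of the 5 mast cell and basophil genes was 321 to 1230.2 and 163 to 634. Scaling matters here as well. With each array centred on its own median, the median of the members was -1.25 in unstimulated and -0.47 in stimulated cells, and that of all genes moved to -0.07 and -0.14.

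In GATA3 siRNA cells the members read slightly lower than in control siRNA cells, by a larger margin in Th2-4th cells as the signals were deposited. After stimulation 47 of the 49 members were lower with GATA3 siRNA in Th2-4th cells, where 49.3% of all genes and 48.6% of the genes above the array median on both arrays were. The median log2 ratio was -0.25 (0.839-fold), against 0.01 for all genes. No member was under 0.5-fold, where 10.6% of all genes and 1.14% of the bright ones were, and 5 were under 1/1.5-fold, where 17.1% of all genes and 5.16% of the bright ones were. In Th2-1st cells 37 members were lower, where 44% of all genes and 47.5% of the bright ones were, with a median of -0.06 (0.959-fold), against 0.05 for all genes. None was under 0.5-fold, where 7.49% of all genes and 0.846% of the bright ones were, and none under 1/1.5-fold, where 12.2% and 3.25% were. All members were bright, so the bright genes are the nearer background. The limma fit over both cultures called 0 of the 49 members for the knockdown at an adjusted p under 0.05, where 0.0385% of all genes were called lower. At an unadjusted p under 0.05 it called 1 member, Polr1a (log2 ratio -0.54, SE 0.20), whose adjusted p of 0.817 was the smallest of the members. The summed mast cell and basophil signal was lower with GATA3 siRNA as well, at 321 against 1230.2 with control siRNA in stimulated Th2-4th cells. It was 163 against 325 in stimulated Th2-1st cells. The 5 genes did not fall together: 3 were over 2-fold higher and 2 under 0.5-fold in Th2-4th cells. In Th2-1st cells 1 was higher and 4 were lower. Only 1 of the 5 was above the array median on both arrays in Th2-4th cells, and 0 in Th2-1st cells. The part of this sum in the ratios of the members was not tested.

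The 5 members under 1/1.5-fold in Th2-4th cells were 4 small subunit factors and 1 large subunit factor. Rrp9 read 1116 with GATA3 siRNA and 1845 with control siRNA in Th2-4th cells, and 1645 and 1533 in Th2-1st cells. Rrs1, an assembly factor of the large subunit, read 7033 and 11055 in Th2-4th cells, and 10856 and 9726 in Th2-1st cells. Wdr43 read 3452 and 5336 in Th2-4th cells, and 4653 and 4976 in Th2-1st cells. For Rrp9 and Rrs1 the signal with GATA3 siRNA was thus below control in Th2-4th cells and above it in Th2-1st cells. Rrp12 read 681 and 1049.7 in Th2-4th cells, and 922 and 1063 in Th2-1st cells. Wdr75 read 3427 and 5182 in Th2-4th cells, and 3677 and 4348 in Th2-1st cells. Where these genes had another probe set, its log2 ratio in Th2-4th cells was -0.28 for Rrs1, -0.39 for Wdr43 and -0.70 for Wdr75, so that Rrs1 and Wdr43 passed 1/1.5-fold by the chosen probe set alone. The choice of probe set worked in the other direction too. Of the other probe sets above the array median, 11 were under 1/1.5-fold in Th2-4th cells, from 9 members, among them Noc2l (-0.85), Rrp1b (-0.81 and -0.65) and Polr1a (-0.75). Their median over all members was -0.36, lower than the -0.25 of the chosen ones.

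Well-known members of each role had smaller ratios of the same direction in Th2-4th cells. Polr1b read 1013 with GATA3 siRNA and 1442 with control siRNA in Th2-4th cells, and 1693 and 1774 in Th2-1st cells. Fbl read 10876 and 13755 in Th2-4th cells, and 15464 and 15874 in Th2-1st cells. Nop56 read 5501 and 7455 in Th2-4th cells, and 11006 and 11585 in Th2-1st cells. The box H/ACA proteins were near control in Th2-1st cells, with log2 ratios of -0.13 to -0.03, and the nucleolar proteins likewise, with -0.09 to 0.04. Nhp2 read 7782 and 10535 in Th2-4th cells, and 12948 and 13211 in Th2-1st cells. Npm1 read 27989 and 32984 in Th2-4th cells, and 35042 and 35016 in Th2-1st cells. Ncl read 21292 and 25812 in Th2-4th cells, and 32365 and 31640.2 in Th2-1st cells. Both nucleolar proteins were lower with GATA3 siRNA in Th2-4th cells and at log2 ratios of 0.00 and 0.03 in Th2-1st cells. Rrn3 read 920.0 and 1112 in Th2-4th cells, and 999 and 1159 in Th2-1st cells. Dkc1 read 7767 and 9259 in Th2-4th cells, and 11098 and 11802 in Th2-1st cells. Both were lower with GATA3 siRNA in each culture.

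Among the assembly factors Heatr1 read 3364 with GATA3 siRNA and 3800.3 with control siRNA in Th2-4th cells, and 3034 and 2995 in Th2-1st cells. Bysl read 1557 and 1875 in Th2-4th cells, and 2283 and 2663 in Th2-1st cells. The 3 proteins of the Bop1, Pes1 and Wdr12 complex were lower with GATA3 siRNA in both cultures by small margins. Bop1 read 1054 and 1231 in Th2-4th cells, and 1137 and 1247 in Th2-1st cells. Pes1 read 1681 and 1981 in Th2-4th cells, and 2292 and 2438 in Th2-1st cells. Wdr12 read 1696 and 1856 in Th2-4th cells, and 2403 and 2588 in Th2-1st cells. The members with the largest stimulation ratios after Rrp9 were lower too. Nolc1 read 5431 and 7162 in Th2-4th cells, and 8256 and 8606 in Th2-1st cells. Nop16 read 2487 and 3239.6 in Th2-4th cells, and 4440.3 and 4472 in Th2-1st cells. Noc3l read 1565 and 1918 in Th2-4th cells, and 1685 and 1948 in Th2-1st cells. Emg1 and Polr1e read lower with GATA3 siRNA in Th2-4th cells and higher in Th2-1st cells. Emg1 read 8398 and 9024 in Th2-4th cells, and 11937 and 11412 in Th2-1st cells. Polr1e read 844 and 951 in Th2-4th cells, and 1178 and 1137 in Th2-1st cells. Nop10 read 8585 and 10026 in Th2-4th cells, and 10756 and 11199 in Th2-1st cells, and for Gar1, Utp14a, Ddx56 and Polr1c the log2 ratio was -0.08, -0.20, -0.24 and 0.04 in Th2-4th cells and -0.13, -0.04, -0.13 and -0.01 in Th2-1st cells.

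Few members departed from this. Noc4l, a small subunit factor, read 3271 with GATA3 siRNA and 2724 with control siRNA in Th2-4th cells, the highest log2 ratio there (0.26), but its 3 other probe sets gave -0.27, -0.46 and -0.28. Polr1c, at 0.04, was the other member above 0, and Pno1 came next at -0.04. In Th2-1st cells Polr1a was lowest, at 521 with GATA3 siRNA and 757 with control siRNA, a log2 ratio of -0.54 that equalled its ratio in Th2-4th cells (283 and 409.8, -0.54). Its other probe sets above the array median gave -0.22 and 0.06 in Th2-1st cells, and in the other culture -0.65 and -0.75. Nob1 (985 and 1221, -0.31) and Rrp1b, a nucleolar factor of the large subunit pathway (4348 and 5235, -0.27), followed in Th2-1st cells. Of the other probe sets of all members above the array median, 39 of 45 had the sign of the chosen one in Th2-4th cells and 23 of 45 in Th2-1st cells.

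**Figure D3:**
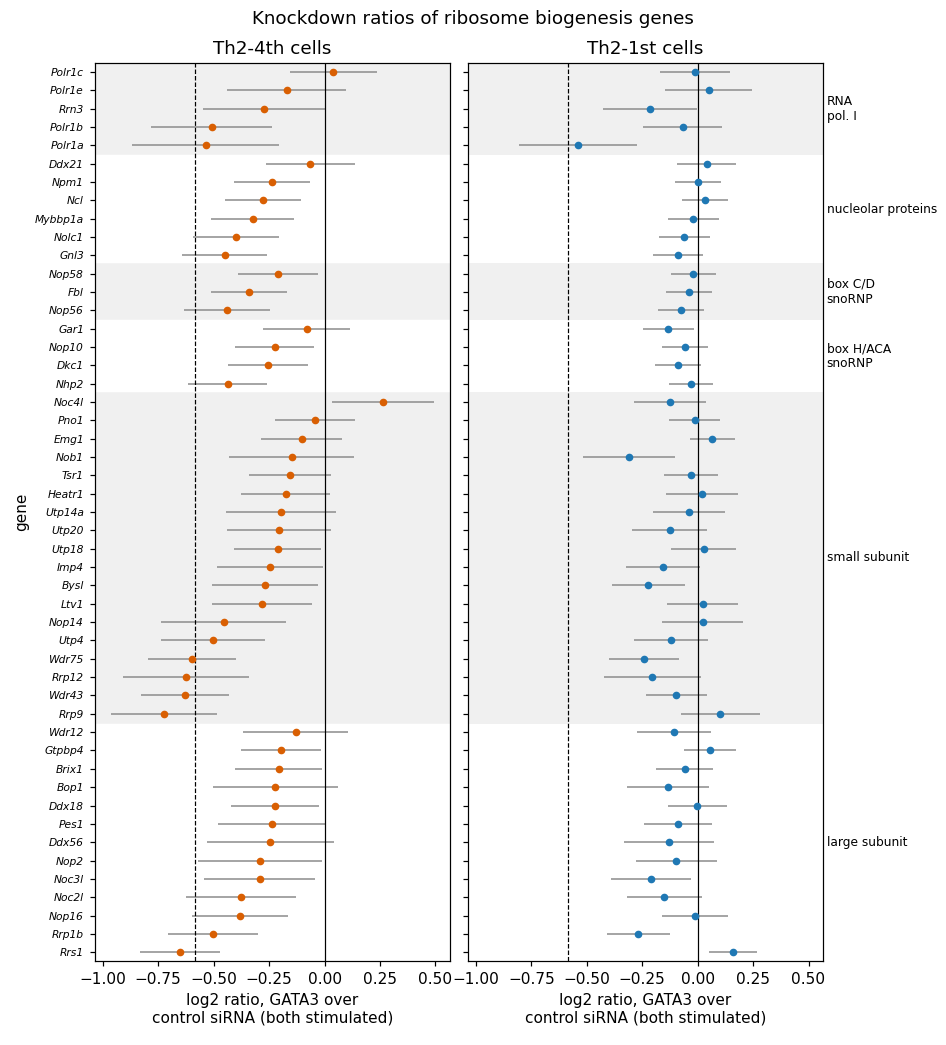
Log2 ratio of GATA3 siRNA over control siRNA, both stimulated (horizontal axis), for 49 ribosome biogenesis genes (vertical axis, by role) in Th2-4th cells (left) and Th2-1st cells (right), each point from 1 pair of arrays. Bars are 1 robust SD among genes of like signal, not replicate error, and the dashed line marks 1/1.5-fold. In Th2-4th cells 47 points lie left of 0, and in Th2-1st cells 37 do, most with bars that cross 0.

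Against the spread of genes of like signal the cultures differed as deposited. In Th2-4th cells that spread was 0.17 to 0.33 for the members, and 34 of the 49 were lower than the median of like genes by more than 1 SD, as 16.4% of all genes were, and 11 lay beyond 2 SD, as 7.80% of all genes did in either direction. In Th2-1st cells the spread was 0.10 to 0.27, and 6 were lower by more than 1 SD, as 16.2% of all genes were, and 1 lay beyond 2 SD, as 8.72% of all genes did. The difference between the cultures depended on the scaling. As deposited, the knockdown ratio was lower in Th2-4th cells for 44 of the 49 members, with a median difference of -0.20. It was lower there for 9744 of all 18194 genes, with a median difference of -0.05. With each array centred on its own median, the median of the members was -0.23 in Th2-1st cells, 49 of 49 were lower there, and the median difference between the cultures was 0.01. Quantile normalization, which kept the median of all genes near 0, left 47 members lower in Th2-4th cells and 35 in Th2-1st cells. So the direction in Th2-4th cells held under each of these scalings, and the difference between the cultures did not hold under median centring.

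Set against the stimulation itself, most of the induced signal remained with GATA3 siRNA. In Th2-4th cells 47 members read between the unstimulated and the stimulated control array, and the part of the induced signal that was reached had a median of 73.3%. It ranged from 22.3% for Npm1, whose induction was small, to 125% for Noc4l, and was 57.6% for Rrp9 and 80.5% for Dkc1. In Th2-1st cells the median was 92.9%, from 32.5% for Polr1a to 120% for Rrs1, with 37 members between both control arrays and 12 above the stimulated one. No member read below its unstimulated control in either culture. The stimulated control array enters both the induction and the knockdown ratio, so these shares do not stand apart from the ratios above.

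Genes next to these in the pathway gave the wider picture. Of 111 measured other ribosome biogenesis genes 62 were over 2-fold after stimulation in Th2-4th cells and 42 in Th2-1st cells. Of all genes 18.7% and 17.5% were. The medians of the 111 were 1.21 and 0.73, below those of the 50-gene list. The largest in Th2-4th cells were Rrp15 (3.59) and Ppan (3.45). In unstimulated cells 24 of the 111 were under 0.5-fold in Th2-4th against Th2-1st cells (median -0.56), where 12.3% of all genes were. Ppan was at -2.48. With GATA3 siRNA 89 of the 111 were lower in Th2-4th cells (median -0.19), with Nle1 (-0.999) and Las1l (-0.80) lowest. In Th2-1st cells 72 were lower (median -0.05). Of all genes 49.3% and 44% were lower. Both Nle1 and Las1l act in the large subunit pathway.

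The ribosomal proteins themselves had ratios unlike those of the factors that assemble them, and theirs depended on the scaling. Of the 79 cytosolic ribosomal protein genes 44 had a probe set naming them alone, and near-identical pseudogenes make such probe sets uncertain. Their median log2 ratio after stimulation was 0.04 in Th2-4th and 0.44 in Th2-1st cells as deposited. With quantile normalization these were -0.02 and 0.05, and with centring on genes of like signal -0.01 and 0.20. In unstimulated cells 40 of the 44 were higher in Th2-4th than in Th2-1st cells, with a median of 0.62 as deposited. This median was 0.38 with median centring and 0.03 with quantile normalization. Of all 18194 genes 10586 were higher there as deposited, with a median of 0.17, while 45 of the 49 assembly genes were lower. With GATA3 siRNA 42 of the 44 ribosomal protein genes were lower in Th2-4th cells (median -0.20, and 0.01 with quantile normalization). As deposited 49.3% of all genes were lower there. In Th2-1st cells 38 of the 44 were higher as deposited (median 0.10) and 43 were lower with median centring (median -0.07), so no direction is given for them there. Of 19 aminoacyl-tRNA synthetases, which charge tRNA with amino acids, 7 were over 2-fold after stimulation in Th2-4th cells (median 0.64). There 18.7% of all genes and 11.3% of the bright ones were. In Th2-1st cells 2 of the 19 were (median 0.61), where 17.5% of all genes and 7.8% of the bright ones were.

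Myc read 5218 in stimulated and 299 in unstimulated control Th2-4th cells, and 4939 and 1841 in Th2-1st cells. With GATA3 siRNA it read 3955 in stimulated Th2-4th cells and 7371 in stimulated Th2-1st cells, log2 ratios of -0.40 and 0.58. As for most members, its lowest array was that of unstimulated Th2-4th cells, and whether 1 follows the other was not tested. Mycn, its close relative, read 1335.1 in stimulated and 189 in unstimulated control Th2-4th cells, and 74.7 and 9.55 in Th2-1st cells. With GATA3 siRNA it read 713 in stimulated Th2-4th and 18.2 in stimulated Th2-1st cells. Of 12 genes of the Myc network, which include both, 3 were over 2-fold and 3 under 0.5-fold after stimulation in Th2-4th cells. Of all 18194 genes 3404 and 3936 were, so these counts do not set the network apart. Its median log2 ratio was 0.09.

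**Figure D4:**
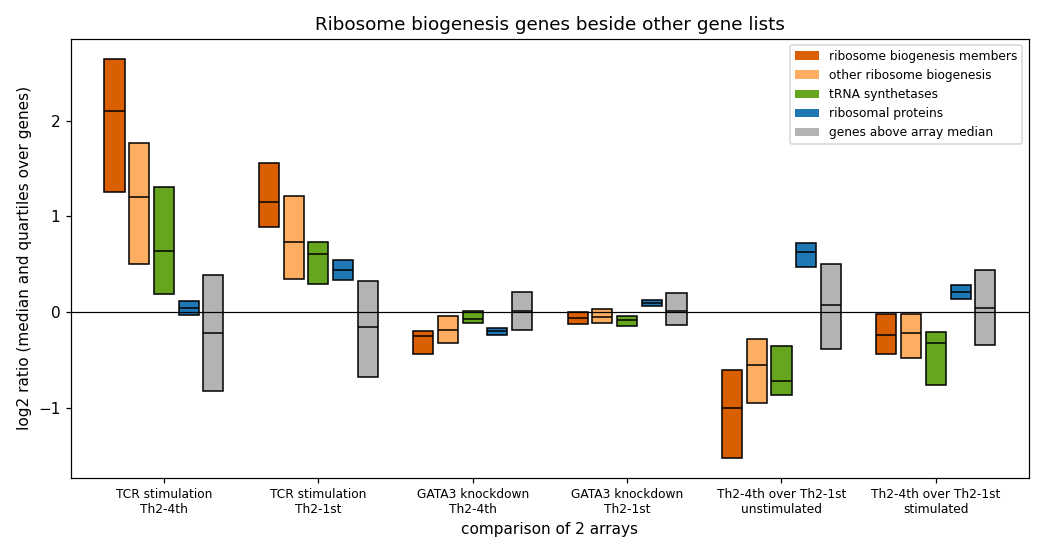
Log2 ratios (vertical axis) in 6 comparisons of 2 arrays (horizontal axis) for the ribosome biogenesis members, other ribosome biogenesis genes, aminoacyl-tRNA synthetases, cytosolic ribosomal proteins and the genes above the array median on both arrays, drawn as the median (line) and quartiles (box) over genes. The members have the highest boxes after stimulation and the lowest box in unstimulated Th2-4th over Th2-1st cells, where the ribosomal proteins lie above 0 on the scale as deposited.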

How the data were processed

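What the authors deposited are signal intensities, 1 for each probe set and not log-transformed, of Affymetrix Mouse Genome arrays read with the Expression Console (version and algorithm: not given in the sources used here). Trimmed of 2% at either end, the deposited intensities averaged 500 on every array, so they had been scaled. Precision is limited by the 1 array per condition. Of 45101 probe sets 34958 named 1 gene, and 99.4% of these matched RefSeq symbols, giving 18194 genes. Log2 ratios of array pairs were taken with no pseudocount or filter, and folds of 2 and 1.5 were counted. Over both cultures limma fitted condition plus culture to the log2 signals of all genes (eBayes with a variance trend, Benjamini-Hochberg adjustment), a fit added after the values were seen. Spread was 1.4826 times the median absolute deviation over 501 genes of nearest signal. The members and gene lists were chosen with earlier results of these data known. Named genes were the 3 highest and lowest members per comparison, those past 2-fold where 10 or fewer were, anchors of each role and up to 5 other ribosome biogenesis genes per comparison. Counts, medians and the limma fit were checked on simulated arrays. Alternatives were the mean over probe sets, dropping probe sets with cross-hybridisation suffixes, median centring, quantile normalization, low-signal filters and floors, other fold thresholds and, added after the values were seen, centring on genes of like signal. Python 3.11.15, numpy 2.4.6, pandas 2.3.3 and matplotlib 3.10.9, R 4.3.3 and limma 3.58.1 were used.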

Additional observations from a re-analysis of the deposited data

Results flagged for a closer look

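For 14 members the log2 ratio of GATA3 siRNA over control siRNA had opposite signs in the cultures. The share of all genes with opposite signs was not counted, so this count does not set the members apart. Each sign rests on 1 pair of arrays and the difference was not tested. The difference, Th2-4th minus Th2-1st, was largest for Rrp9 (-0.83, from -0.73 and 0.10) and Rrs1 (-0.81, from -0.65 and 0.16), followed by Nop14 (-0.48), Ncl (-0.31), Ltv1 (-0.31), Gtpbp4 (-0.25), Utp18 (-0.24), Npm1 (-0.24), Polr1e (-0.22), Heatr1 (-0.19), Emg1 (-0.17) and Ddx21 (-0.10). It was positive for Noc4l (0.39) and Polr1c (0.051). After median centring of each array 2 of the 49 members had opposite signs.

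For 13 members the ratio of Th2-4th over Th2-1st control cells had opposite signs with and without stimulation, also untested. Here too the share of all genes was not counted, and the count does not set the members apart. The stimulated minus the unstimulated log2 ratio was 1.75 for Tsr1, 1.63 for Wdr75, 1.51 for Rrs1, 1.35 for Rrp9, 1.13 for Pno1, 1.08 for Ddx21, 1.05 for Heatr1, 0.72 for Wdr43 and 0.52 for Gtpbp4, each lower in unstimulated Th2-4th cells. It was -0.44 for Utp14a, -0.39 for Nop10, -0.25 for Npm1 and -0.24 for Polr1c, each higher there. These values are those of the chosen probe sets, and for Utp14a the other probe set gave a positive difference. After median centring 3 members had opposite signs.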

How the results depend on the processing

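Of 2034 values of single members under the alternatives, 1967 moved by less than the spread of like genes and 67 by more. The 1967 include 294 values under the low-signal floor and 294 under the low-signal filter. Those could not move, because all members read above the array median, so they are no check. None of the values past 2-fold changed sign. Sign changes of smaller values, which include every knockdown ratio, were not counted. Some occurred, since 37 members were lower with GATA3 siRNA in Th2-1st cells as deposited and 49 with median centring. Of the group values, quantile normalization moved the median response in Th2-4th cells to 2.22, and the difference of the response between cultures to 0.88, and centring on genes of like signal moved them to 2.32 and 0.98. Median centring gave, for GATA3 siRNA in Th2-1st cells, a median of -0.23 with 1 member under 1/1.5-fold, a difference of the knockdown ratio between cultures of 0.012 in place of -0.20, and for Th2-4th over Th2-1st cells a median of -1.25 unstimulated and -0.47 stimulated, with 2 members under 0.5-fold and 16 under 1/1.5-fold after stimulation. It moved the median of all genes in Th2-1st knockdown ratios to -0.12, and the shares of all genes past these folds were not counted on that scale. The cause was not tested. Without probe sets that can cross-hybridise 45 members were left (Npm1, Gnl3, Gar1 and Tsr1 were lost) and the unstimulated culture median was -0.85. At a threshold of the square root of 10, 8 members passed after stimulation in Th2-1st cells and 9 were lower in unstimulated Th2-4th cells. At that threshold 3 had a larger response in Th2-4th cells. The share of all genes was not taken there, so these counts have no background. At 1.5-fold 31 members had a larger response in Th2-4th cells, as 4311 of 18194 genes had. Within a culture no paired analysis was possible, because each condition had 1 array. Over both cultures the limma fit held a term for culture. The limma fit over both cultures called 45 members higher after stimulation, 0 without the variance trend and 44 to 46 under median centring, quantile normalization or bright genes alone. Leaving out each array in turn gave 39 to 47. For the knockdown it called 0 of the 49 members as deposited and under each of these settings. Within a culture no replicate could be left out. Without replicates, differences near the spread of like genes cannot be resolved.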

Other observations

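The control probe sets for 18S rRNA on the arrays, which an oligo(dT)-primed label should read little of, were higher in Th2-4th than in Th2-1st cells, with log2 ratios of 1.45 to 2.38 over 3 probe sets in unstimulated and 0.67 to 0.82 in stimulated control cells. After stimulation they were lower in Th2-4th cells (-0.66 to -0.22) and higher in Th2-1st cells (0.30 to 1.05). What these values measure was not tested.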
